A study of Mus musculus with 4 samples.

Results

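Pi4kb and Rab4a, a lipid kinase and a small GTPase of the membrane traffic system, were followed in infarcted mouse hearts with and without endothelial S1pr1, a receptor for sphingosine 1-phosphate. Their probes were found through the RefSeq accession that the array gives for each spot, and 3 of 39429 probes belonged to them, or 2 genes of 20659 named. Pi4kb (gene 107650, chromosome 3) had the probe A_55_P2006668, designed on NM_175356. S1pr1, the gene targeted in KO hearts, lies on chromosome 3 too, and any effect of that shared chromosome on Pi4kb was not tested. Rab4a (gene 19341, chromosome 8) had the probes A_55_P2015715 and A_55_P2148641, both designed on NM_009003. Both genes were chosen by their measured difference on the same 4 arrays, where earlier results listed them among the probes that differed between the genotypes with no overlap. Their differences between genotypes are therefore a description and carry no test.

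The KO group was 2 heart samples of male VE-Cad-Cre-S1pr1 fl/fl mice, in which Cre under the VE-cadherin promoter is used to remove S1pr1 from endothelial cells. The WT group was 2 heart samples of male mice labelled wild type, and whether these carried the floxed allele or Cre is not given in the sources used here. All hearts were taken on day 5 after the left anterior descending artery had been tied off, so every sample was infarcted. RNA of each was hybridised to a 1-colour Agilent array, in which the brightness of a spot stands for the abundance of 1 transcript region. The labels number the samples KO 3, KO 4, WT 1 and WT 3. They do not say that each came from a separate animal, so the spread between samples may be technical.

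Phosphatidylinositol 4-kinase beta, the product of Pi4kb, makes phosphatidylinositol 4-phosphate (PI4P) at the Golgi. PI4P recruits coat adaptors and lipid transfer proteins that load carriers bound for the cell surface. Rab4a, a small GTPase of early endosomes, drives the fast return of internalised receptors to the plasma membrane, and in heart muscle and fat cells it has been studied in the traffic of the glucose transporter Slc2a4 and of beta-adrenergic receptors.

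The sequence around the start of Pi4kb is shown because it is the stretch from which its transcript begins. It comes from RefSeq on the GRCm38.p6 build, chr3:94974481-94974780, plus strand, with 250 bases before the start and 50 after it. Capitals mark the GC box that the factor SP1 binds, searched as GGGCGG on both strands and read here as CCGCCC, since both matches lie on the other strand.
Pi4kb: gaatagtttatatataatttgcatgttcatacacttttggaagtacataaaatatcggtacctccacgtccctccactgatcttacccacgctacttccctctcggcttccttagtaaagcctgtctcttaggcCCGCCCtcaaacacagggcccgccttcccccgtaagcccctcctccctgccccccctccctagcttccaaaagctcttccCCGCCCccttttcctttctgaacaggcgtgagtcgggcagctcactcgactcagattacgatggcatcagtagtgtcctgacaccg
The matches begin 116 and 36 bases before the start, and 35.7% of 32851 promoters of this length hold at least 1. The letters TATAAA occurred once, on the other strand, 244 bases before the start (13.6% of promoters hold them). No match was found for CCAAT (37.4% of promoters), CACGTG (7.15%), CCGGAAGT (3.89%), TGACGTCA (1.79%), AGATAA (11.2%) or AAGATGGC (2.75%), and the matches found do not overlap one another. The window's GC content was 53.0%, against a median of 52.7% over all promoters.

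Levels are log2 processed signals minus the 75th percentile of the array, so 0 is the level of that percentile. WT replicate 1 stood apart in its background: the lowest signal called well above background was at -4.39, against -6.98, -6.50 and -6.50 on KO replicates 3 and 4 and WT replicate 3. Of the probes, 54.3% were well above background on WT replicate 1, against 69.4% to 73.4% on the other arrays. The arrays share a slide, with the KO samples at positions 1 and 2 and the WT samples at 3 and 4, so position and genotype cannot be told apart. S1pr1 itself was at -2.69 and -2.30 in KO hearts, against 0.43 and 0.95 in WT hearts, a difference of -3.19 (SE 0.37, limma's adjusted p = 0.732). Of 28082 probes tested, 0 (0.0%) passed an adjusted p of 0.05 in limma's test, and 781 (2.78%) had an unadjusted p under 0.05. All 16 cardiomyocyte and all 10 endothelial markers were well above background on all 4 arrays.

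Pi4kb was higher in KO hearts, with little spread within either genotype. Its level was -0.41 and -0.38 on KO replicates 3 and 4, against -1.90 and -1.93 on WT replicates 1 and 3. Both KO samples lay above both WT samples, and the pairs within a genotype were nearly level. The means were -0.39 ± 0.02 in KO hearts and -1.92 ± 0.02 in WT hearts (SD, n = 2 each), a difference of 1.52 (SE 0.30, from limma's fit) or 2.87-fold. The KO replicates differed by 0.03 and the WT replicates by -0.02 (replicate 3 minus replicate 1). Both are smaller than the scanner's error of a single Pi4kb spot, 0.14 to 0.15 upward in log2. So close an agreement, in a probe chosen for its gap, cannot be read as a trait of Pi4kb. Over all tested probes the median absolute difference was 0.42 between the KO arrays and 0.57 between the WT arrays. Between KO replicate 3 and WT replicate 3 it was 0.21, so these arrays of opposite genotype were closer than either pair of replicates.

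Rab4a was higher in KO hearts on both of its probes, and more so on KO replicate 4. On A_55_P2015715 its level was 1.096 and 1.66 on KO replicates 3 and 4, against -0.33 and -0.37 on WT replicates 1 and 3. The genotypes did not overlap, the WT samples were nearly level and the KO samples were apart. The means were 1.38 ± 0.40 in KO hearts and -0.35 ± 0.02 in WT hearts (SD, n = 2 each), a difference of 1.73 (SE 0.36) or 3.32-fold.

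The other Rab4a probe, A_55_P2148641, showed the same order of samples. It stood at -2.18 and -1.68 on KO replicates 3 and 4, against -3.89 and -3.92 on WT replicates 1 and 3. Again both KO samples were above both WT samples. The means were -1.93 ± 0.36 in KO hearts and -3.91 ± 0.03 in WT hearts (SD, n = 2 each), a difference of 1.97 (SE 0.34) or 3.93-fold. KO replicate 4 exceeded KO replicate 3 by 0.50 on this probe and by 0.57 on the other.

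**Figure D1:**
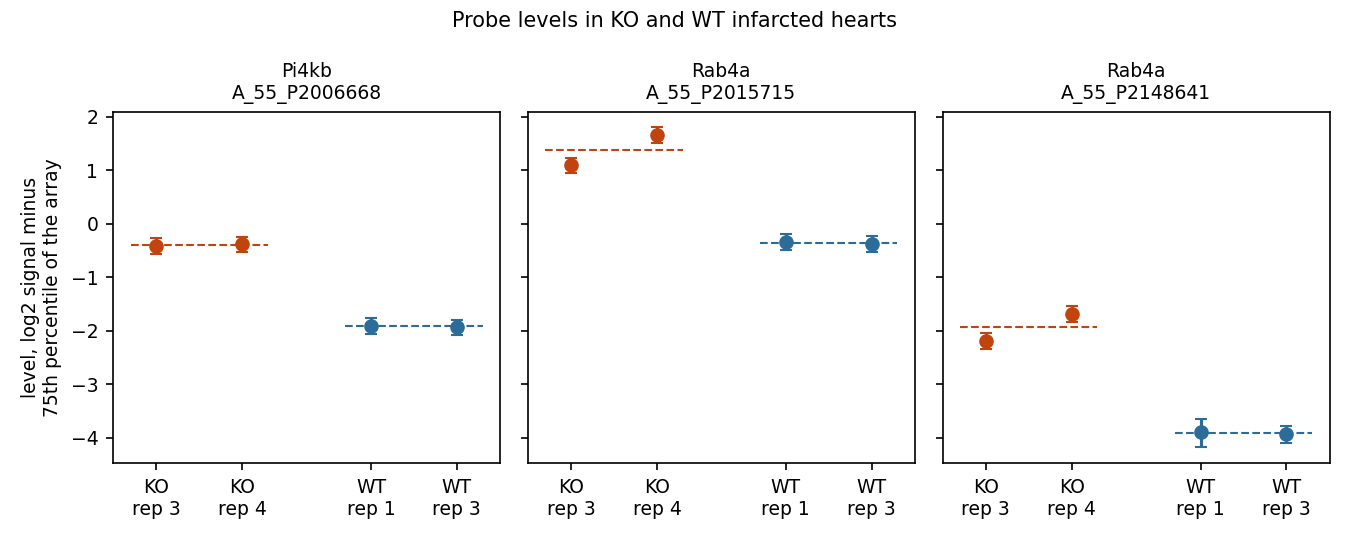
Level of each Pi4kb and Rab4a probe (y axis, log2 relative to the array's 75th percentile) on the KO and WT arrays; points are arrays, bars the scanner's error of that spot and dashed lines the genotype means. For all 3 probes both KO points lie above both WT points, with the WT points nearly level.

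Non-overlapping arrays alone are common: 19.1% of tested probes had both KO values above both WT values, and 16.0% had both below. All 3 probes of Pi4kb and Rab4a are of the higher kind, which is how they were chosen. For Pi4kb the gap between the lowest KO and the highest WT value was 1.50, and 27 probes (0.0961%) had an upward gap at least as wide. For Rab4a the gaps were 1.43 (30 probes, 0.107%) and 1.70 (15 probes, 0.0534%). These counts rank the gaps that led to the choice and give no support of their own. A difference at least as large as that of Pi4kb, whatever the overlap, was found for 1186 probes (4.22%), and the Rab4a differences were reached by 814 (2.90%) and 527 (1.88%).

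The difference was positive for both genes whichever KO sample was set against whichever WT sample. For Pi4kb the 4 such pairs ran between 1.50 (KO replicate 3 minus WT replicate 1) and 1.55 (KO replicate 4 minus WT replicate 3). That range is narrower than the scanner's error of a single spot. For Rab4a, pairs with KO replicate 3 gave 1.43 and 1.46 on A_55_P2015715, and pairs with KO replicate 4 gave 1.999 and 2.03. On A_55_P2148641 they gave 1.70 and 1.74 with KO replicate 3, and 2.21 and 2.24 with KO replicate 4. The WT sample used made little difference to either gene, and the KO sample moved only Rab4a.

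Each probe has 1 spot per array, and no spot of the 3 probes was saturated. The Pi4kb spot had a processed signal of 709 ± 71.0 and 475 ± 47.5 in KO hearts, against 297 ± 31.7 and 225 ± 22.6 in WT hearts (± the scanner's error estimate for the spot). Before scaling, too, both KO signals were above both WT signals. The brighter Rab4a spot had 2013 ± 201 and 1957 ± 196 in KO hearts, against 881 ± 88.9 and 662 ± 66.3 in WT hearts, again without overlap. The dimmer Rab4a spot had 207 ± 20.8 and 193 ± 19.3 in KO hearts, against 75.1 ± 13.6 and 56.3 ± 6.04 in WT hearts. That spot on WT replicate 1 had the widest error of the 12, 18.1% of its signal, where the others had at most 10.7%.

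Signal over background sets how far these values can be trusted. The median signal over the local background was 38.5 and 29.1 for Pi4kb in KO hearts, against 15.7 and 12.9 in WT hearts. For Rab4a it was 77.0 and 79.4 in KO hearts, against 45.9 and 28.4 in WT hearts, on A_55_P2015715. On A_55_P2148641 it was 11.9 and 10.9 in KO hearts, against 5.22 and 3.93 in WT hearts. On WT replicate 1 this dimmer probe was 0.50 above the lowest signal called well above background there, so this is the least firmly measured of the values.

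Other spots near those of Pi4kb and Rab4a on the slide mostly had smaller differences, but their medians were above that of all tested probes. Among 55 tested spots within 4 rows and columns of Pi4kb, the median difference was 0.36 (quartiles -0.46 and 0.90), and 8 were at least as high as Pi4kb. Around A_55_P2015715 the median was 0.29 over 49 spots (quartiles -0.30 and 0.80) and 3 reached the Rab4a value. Around A_55_P2148641 it was 0.14 over 56 spots (quartiles -0.70 and 0.71), with 2 as high. Over all tested probes the median was 0.08 (quartiles -0.32 and 0.50). Of these probes 4.22% reached the Pi4kb difference, and 2.90% and 1.88% reached those of A_55_P2015715 and A_55_P2148641. Each share was smaller than that among the nearby spots. An effect of place on the slide was not tested.

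The levels of cell type markers differed between the arrays too, and in bulk tissue fewer cells of a type and less RNA per cell cannot be told apart. The mean level of 16 ventricular cardiomyocyte markers, all well above background throughout, was 6.04 and 6.83 in KO hearts, against 2.08 and 6.27 in WT hearts. WT replicate 1 stood far below WT replicate 3 on this list, and the WT replicates were within 0.04 of each other on all 3 Pi4kb and Rab4a probes. KO replicate 3 and WT replicate 3 were close on this list and differed by 1.52 for Pi4kb and by 1.46 and 1.74 for Rab4a. The probes were chosen for their gap between genotypes, so these contrasts follow from that choice and are given as a description. For 13 of 14 pan-macrophage markers tested, the mean was 2.71 and 1.45 in KO hearts, against 3.80 and 2.91 in WT hearts. KO replicate 4, where Rab4a was highest, was lowest on macrophage markers and highest on cardiomyocyte markers.

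Endothelial and pericyte markers were the lists whose means separated the genotypes in the same direction as Pi4kb and Rab4a. The 10 endothelial markers averaged 2.18 and 2.04 in KO hearts, against 1.54 and 1.84 in WT hearts, with a median difference of 0.31. All 10 were higher in KO hearts, 6 of them without overlap, against 18.0% of all named genes higher without overlap, and 0 passed limma's adjusted threshold (0 at an unadjusted p under 0.05). The 6 pericyte markers averaged 1.85 and 1.88 in KO hearts, against 0.02 and 1.58 in WT hearts, with a median difference of 1.25, and 4 of the 6 were higher without overlap. Between KO replicate 3 and WT replicate 3 these list means were closer than Pi4kb and Rab4a were, but a mean levels out its members. The markers furthest apart in each list were Cldn5 (2.17 on KO replicate 3 and 1.29 on WT replicate 3) and Kcnj8 (0.52 and -0.40). Pi4kb and Rab4a are single genes chosen for their gap, so the measures are unlike. The part of cell makeup in the Pi4kb and Rab4a values was not tested.

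**Figure D2:**
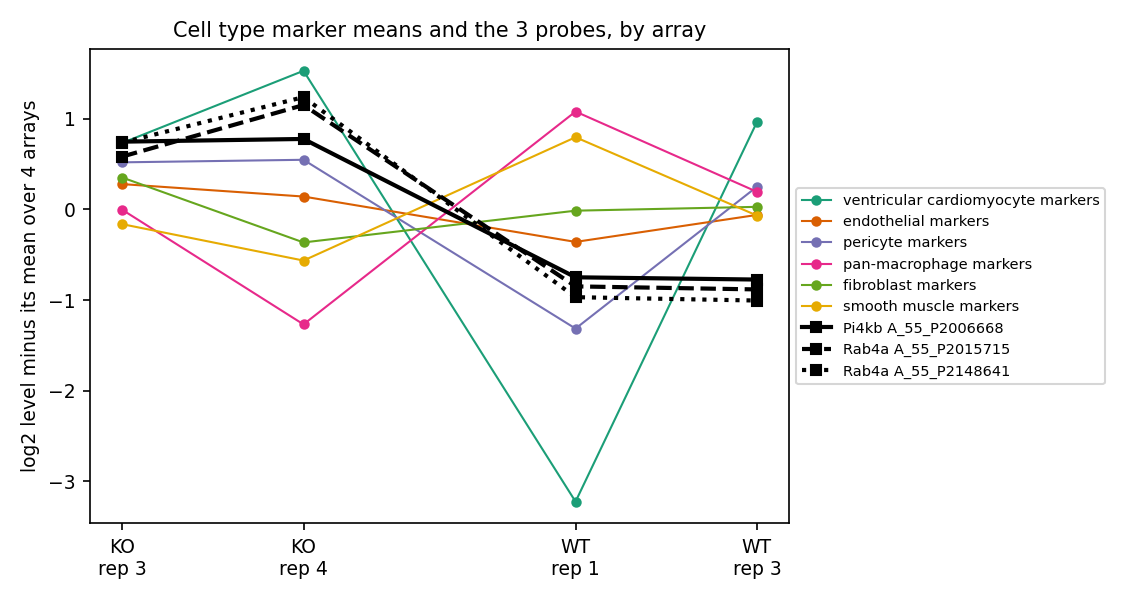
Mean level of 6 cell type marker lists and level of the 3 Pi4kb and Rab4a probes on each KO and WT array (log2, minus the row's mean over the 4 arrays). The 3 probes, chosen for their gap, split the arrays by genotype, while the cardiomyocyte list sets WT replicate 1 apart from the other 3 arrays.

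The remaining marker lists had median differences of -0.05 for fibroblasts, -0.97 for smooth muscle, 0.19 for T cells, -0.52 for B cells, -0.22 for neutrophils, -1.28 for erythroid cells, 0.13 for Schwann cells and -1.49 for adipocytes. Like those of the macrophage list, the means of the smooth muscle and erythroid lists were separated by genotype and lower in KO hearts. Smooth muscle stood at 2.02 and 1.62 in KO hearts, against 2.98 and 2.12 in WT hearts, and erythroid markers at 0.90 and 1.13 in KO hearts, against 2.71 and 1.44 in WT hearts. Pi4kb and Rab4a ran the other way from these lists.

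Pi4kb and Rab4a had much the same profile over the arrays. Likeness was taken as the root mean square distance between the 4 log2 values of each probe, centred on its mean, over 15935 probes of 12480 genes well above background on all 4 arrays. The Rab4a probes lay 0.12 apart, and each was the nearest of all to the other. Pi4kb lay 0.22 from A_55_P2015715 and 0.28 from A_55_P2148641, while the median distance of the pool was 0.83 from Pi4kb and 0.94 and 1.05 from the Rab4a probes. With 4 arrays and a choice made on the genotype difference, near profiles are a matter of selection and are given as a description.

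The named genes nearest to Pi4kb were Dtx1, a ubiquitin ligase of the Notch pathway, at 0.13, and Wars2, the mitochondrial tryptophanyl-tRNA synthetase, at 0.14. Zfp318, a zinc finger protein, followed at 0.17, then Fbln1, an extracellular matrix protein, and Ptgfr, the prostaglandin F receptor, both at 0.18. Dtx1 was at -2.76 and -2.79 in KO hearts, against -4.01 and -4.07 in WT hearts. Like Pi4kb it was level within each genotype, but its WT values were close to the -4.39 of WT replicate 1. The WT values of Zfp318, -4.14 and -4.05, were close to it too.

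The named genes nearest to A_55_P2015715 of Rab4a were Wars2 (0.20), the p38 kinase activator Map2k6 (0.21), the TBC domain protein Tbc1d10c (0.21), the matrix protein Vit (0.22) and Pi4kb (0.22). For A_55_P2148641 they were the MutS family protein Msh5 (0.27), Pi4kb (0.28), Tbc1d10c (0.29), Vit (0.30) and Wars2 (0.31). Wars2 was at -0.88 and -0.53 in KO hearts, against -2.01 and -2.13 in WT hearts. Tbc1d10c was at -1.94 and -0.83 in KO hearts, against -3.01 and -2.93 in WT hearts. Tbc1d10c shared with Rab4a the higher value on KO replicate 4.

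**Figure D3:**
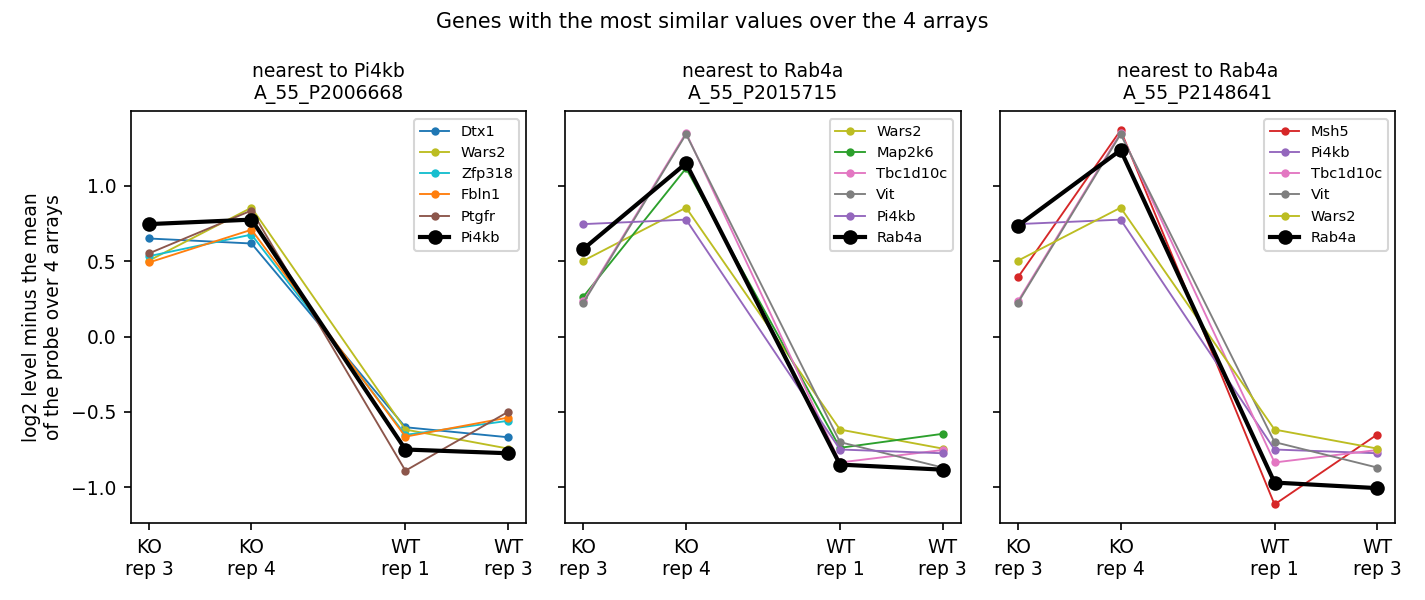
Log2 level minus the probe's mean over 4 arrays (y axis) for each Pi4kb and Rab4a probe and its 5 nearest named genes, on KO and WT arrays. The nearest genes follow each probe closely, and all are higher in both KO hearts than in both WT hearts.

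Genes that work with Pi4kb and Rab4a lay on both sides of no difference. Of 105 such genes in 8 lists, 103 were tested, and Rab25 and Rab11fip1 were too dim. In KO hearts 47 were higher and 56 lower, and 0 passed limma's adjusted threshold, with 1 at an unadjusted p under 0.05. Both KO values lay above both WT values for 13 (12.6%) and below them for 22 (21.4%), against 18.0% and 16.7% of all 15952 named genes. Their median difference was -0.04 (quartiles -0.28 and 0.27). Of the 103, Slc2a4, Pip5k1b and Adrb1 differed by at least as much as Pi4kb in either direction, the last pair with WT replicate 1 not well above background.

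Of the other kinases that make PI4P and the phosphatase that removes it, 0 were higher and 1 was lower without overlap, against 18.0% and 16.7% of all named genes. Pi4ka, the plasma membrane kinase, differed by 0.02 (SE 0.30). Pi4k2a, an endosomal kinase, differed by -0.31 (SE 0.32), and its other probe by 0.16. Pi4k2b, its close relative, was at -1.99 and -3.67 in KO hearts, against -0.53 and -2.27 in WT hearts, a difference of -1.43 (SE 0.87) with overlap between the genotypes. Sacm1l, the phosphatase that removes PI4P, differed by 0.17 (SE 0.33), and the list of these 4 genes had a median of -0.15.

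Recruiters and regulators of Pi4kb had a median of -0.06 over 16 genes, 7 higher and 9 lower. Without overlap, 3 of the 16 were higher and 5 lower, against 18.0% and 16.7% of all named genes. Acbd3, which tethers the kinase to the Golgi, was at 0.62 and 0.44 in KO hearts, against 1.69 and 0.70 in WT hearts, a difference of -0.67 (SE 0.45). It was thus lower where Pi4kb was higher, with no overlap. Prkd2, a protein kinase D, was at 0.63 and 0.62 in KO hearts, against -0.08 and -0.30 in WT hearts, a difference of 0.81 (SE 0.31) that did not pass the adjusted threshold.

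The calcium sensor Ncs1, another partner of Pi4kb, differed by -0.64 (SE 0.50), about as much as Acbd3 but with overlap. The other partners named here were closer to no difference. The GTPases Arf1 and Rab11a differed by -0.32 (SE 0.31) and -0.21 (SE 0.31), and the Arf exchange factor Arfgef2 by 0.30 (SE 0.34). Armh3, a Golgi partner of the kinase, differed by 0.22 (SE 0.49) and 3 of the 4 arrays measured it well above background.

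The list of Golgi PI4P effectors and their partners had a median of 0.02 over 17 genes. This median turned to -0.09 under median scaling of the arrays and to -0.12 without WT replicate 3. The largest differences were those of Myo18a, a myosin of the Golgi, at 1.03 (SE 0.58), and Osbp, which exchanges sterol for PI4P, at 0.80 (SE 0.40). The lowest were the lipid-binding protein Osbpl10 at -0.59 and the clathrin adaptor Clint1 at -0.40. Osbp was at 0.81 and 1.37 in KO hearts, against 0.01 and 0.58 in WT hearts, so that it too was highest on KO replicate 4. Phosphoinositide supply and conversion had a median of -0.21 over 17 genes, but of -0.087 without WT replicate 1, -0.13 without WT replicate 3, -0.054 with a common floor for dim signals, -0.32 under median scaling and -0.013 under a normexp background correction chosen after seeing the data. Pip5k1b, which makes PI(4,5)P2 from PI4P, was at -1.94 and -1.36 in KO hearts, against -4.96 and -1.60 in WT hearts, and the low value on WT replicate 1 was not well above background. The transfer protein Pitpnc1 differed by 0.73, the lipid kinase Pip4k2a by -0.69 and the phosphatase Ocrl by -0.52.

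Endosomal GTPases related to Rab4a had a median of -0.12 over 16 genes. Rab4b, its close paralogue, was at -2.30 and -3.08 in KO hearts, against -1.81 and -2.32 in WT hearts, a difference of -0.62 (SE 0.43). The genotypes overlapped for Rab4b, and its sign was opposite to that of Rab4a. Rab31 differed by -0.70, and Rab21 and Rab22a by 0.45 and 0.46.

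Effectors and regulators of Rab4a had a median of -0.11 over 13 genes, 5 higher and 8 lower, but of 0.10 without WT replicate 1. The rabaptins Rabep1 and Rabep2, which bind active Rab4, differed by 0.22 (SE 0.33) and -0.51. The exchange factor Rabgef1 differed by 0.14 (SE 0.33), the endosomal effectors Rufy1 and Rbsn by 0.57 (SE 0.49) and -0.28 (SE 0.41), and the Rab4-binding protein Gripap1 by -0.40 (SE 0.39). Tbc1d16, which stimulates GTP hydrolysis by Rab4a, differed by 1.16 (SE 0.82) and the motor Kif13a by 0.998 (SE 0.63), both with overlap. Of the 13 genes, 0 were higher and 2 lower without overlap, against 18.0% and 16.7% of all named genes.

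The recycling machinery had a median of 0.03 over 16 genes, which was -0.08 under median scaling. Ehd3, an ATPase of recycling tubules, was at -0.41 and -0.41 in KO hearts, against 1.09 and -0.16 in WT hearts, a difference of -0.87 (SE 0.52). Rab11fip2, which links Rab11 to a myosin motor, differed by 1.39 (SE 0.89) with overlap and 3 of the 4 arrays measured it well above background. Ehd4 differed by 0.68 and Ehd2 by -0.33.

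Cargo that recycles through Rab4a compartments had a median of 0.97 over 6 genes, but of 0.11 without WT replicate 1, 1.60 without WT replicate 3 and -0.34 between the arrays numbered 3. Slc2a4, the insulin-responsive glucose transporter, was at 5.06 and 6.40 in KO hearts, against -0.04 and 5.42 in WT hearts, a difference of 3.04 (SE 1.93). WT replicate 1, low on cardiomyocyte markers, was also low for Slc2a4, and the genotypes overlapped. Adrb1, a beta-adrenergic receptor, was at -1.63 and -1.08 in KO hearts, against -4.83 and -0.98 in WT hearts. It was not well above background on WT replicate 1, and its other probe differed by -0.56, the opposite sign. Tfrc, the transferrin receptor, was at 0.43 and 2.40 in KO hearts, against -1.03 and 1.77 in WT hearts, with overlap. The sorting receptor Sort1 differed by 0.38 and the aminopeptidase Lnpep by -0.01 (SE 0.31). Thus 5 of 6 cargo genes were higher in KO hearts and 0 passed the adjusted threshold.

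**Figure D4:**
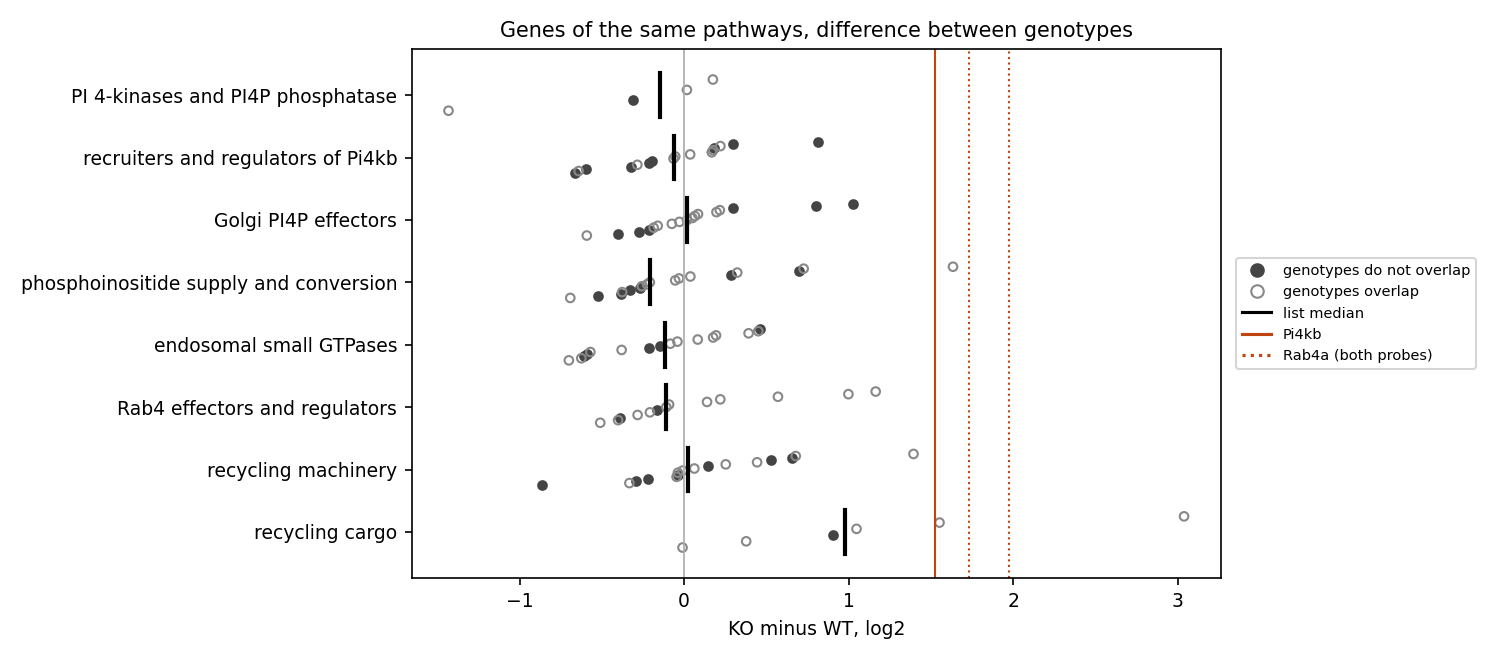
KO minus WT difference (x axis, log2) of each tested gene of 8 membrane traffic lists; filled points do not overlap between genotypes, open points do, black bars are list medians, and vertical lines mark Pi4kb (solid) and both Rab4a probes (dotted). List medians run from -0.21 to 0.97, and only Slc2a4, Pip5k1b and Adrb1 lie at or beyond the Pi4kb line.

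Of the 10 genes beside Pi4kb and the 10 beside Rab4a in the gene order of the RefSeq table, 0 were higher without overlap, against 18.0% of all named genes. Of the 5 tested genes on each side of Pi4kb, 3 were higher and 7 lower in KO hearts, with a median of -0.21, and 6 of the 7 were lower without overlap, against 16.7% of all named genes. Zfp687, a zinc finger protein, and Rfx5, a regulator of MHC class II genes, flank Pi4kb and differed by -0.24 and -0.50. Rfx5, counted among the 6, was well above background on only 2 of the 4 arrays. Selenbp1, a selenium-binding protein, was at 3.03 and 4.78 in KO hearts, against 0.87 and 3.61 in WT hearts, a difference of 1.67 (SE 1.14). Tmod4, a muscle tropomodulin, differed by 1.60 (SE 1.19), also with overlap. The others ran from -0.94 for the junction protein Cgn to 0.01 for the chromatin remodelling subunit Vps72.

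Around Rab4a, 4 genes were higher and 6 lower in KO hearts, with a median of -0.07. The centriole protein Ccsap and the small GTPase Rhou flank Rab4a and differed by -0.51 and -1.12. Acta1, the skeletal muscle actin, differed by 0.04 (SE 0.97), and the highest value was that of the mitochondrial transporter Abcb10 at 0.62.

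**Figure D5:**
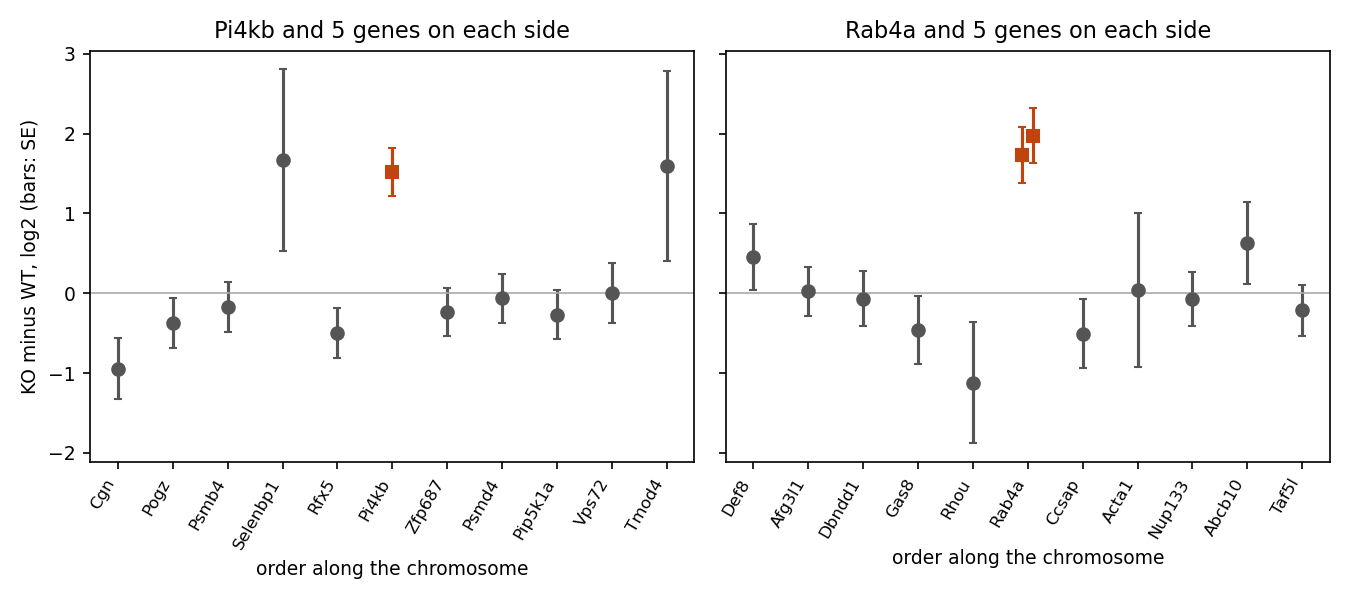
KO minus WT difference (y axis, log2, bars are limma's SE) of Pi4kb and Rab4a and the 5 tested protein-coding genes on each side in gene order. Pi4kb (1.52) stands beside neighbours from -0.94 to 1.67, and Rab4a (1.73) beside neighbours from -1.12 to 0.62.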

How the data were processed

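RNA of 4 samples of infarcted heart, 2 KO and 2 WT, was extracted with Trizol, and 0.5 ug per array was amplified and labelled with Cy3, per the labels' protocols. Per the file headers the scans were quantified in Feature Extraction 11.0.1.1. Version 9.1 is listed in the submitters' processing notes. The processed signal is an intensity that was background-subtracted and detrended within each array, per the file headers. The other values used, the flags for saturation, outliers and signal well above background, are those deposited. The deposited value table holds log2 values with slopes of 0.997 to 1.01 against log2 scanner signals and equal medians (6.12) in all 4 columns, so the authors had normalized between arrays. The upper quartiles were equal too (9.75), as quantile scaling would leave them. The method is not given in the sources used here, and the baseline of these values is unknown.

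Control and outlier spots were left out, spots of a probe were averaged, and log2 signals were scaled to each array's 75th percentile over probes. The 28082 probes with 2 or more of the 4 arrays well above background were fitted with limma 3.58.1 in R 4.3.3 (lmFit, eBayes), with Benjamini-Hochberg adjustment over all of them. The fit was run on simulated data, with recovery of planted changes required only at a spread far smaller than that of these arrays. That run therefore does not show the power of the fit here. A list gene was read from its brightest probe by mean. The RefSeq accession named 27234 of 39429 probes through the GRCm38.p6 table, 0 had several symbols and 12195 had none. The array grid names mm9, so no coordinates are printed for the probes, and the one promoter window carries those of its own build, GRCm38.p6.

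Pi4kb, Rab4a and all gene and marker lists were chosen with earlier results of these data known. The genes named are a fixed set of partners, the 2 most different each way in every list, the 5 nearest profiles and the 5 neighbours in gene order on each side; 1 list gene is counted but not reported here by name. Other scalings, signals, filters, floors, probe rules and left-out arrays were tried. The number of arrays limits the precision: an exact permutation test of 2 against 2 (two-sided) cannot give a p below 0.333.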

Additional observations from a re-analysis of the deposited data

How the results depend on the processing

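Of the 10 alternatives run, quantile scaling and the deposited values gave nearly equal results and are hardly separate. In all 10 the KO minus WT difference was above 0 for each of the 3 probes. For Pi4kb it was 1.49 under quantile scaling, 1.41 under median scaling, 1.49 from the deposited values and 1.34 under a normexp background correction of the median signals. The last was chosen after seeing the data, since the mean signals of the planned correction were not used here and that setting was not run. It gave 1.29 for the dimmer Rab4a probe. Leaving out each array in turn gave 1.51 to 1.54 for Pi4kb, 1.45 to 2.02 for the brighter Rab4a probe and 1.72 to 2.22 for the dimmer one. Median scaling moved the median of all probes by -0.11. Relative to the median of all probes, Pi4kb differed by 1.44 and Rab4a by 1.65 and 1.89, which median scaling leaves the same by construction. Under quantile scaling these values were 1.46, 1.69 and 1.85, and under the normexp correction they fell to 1.19, 1.44 and 1.14.

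Counts past the adjusted threshold were 0 in all 14 alternatives, the smallest adjusted p of limma being 0.129 (without WT replicate 3), against 0.722 as reported. The median of the Golgi PI4P effectors was -0.092 under median scaling and -0.12 to 0.079 with each array left out. That of recycling cargo was 0.11 to 1.60 with each array left out and -0.34 for the arrays numbered 3 alone. The cause was not tested. No paired analysis was possible because KO (3 and 4) and WT (1 and 3) share only the number 3. With 2 arrays a genotype on 1 slide, and signal over background of 5.22 and 3.93 for the dimmer Rab4a probe in WT hearts, small differences cannot be resolved.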
